A study of Mus musculus with 40 samples.

Results

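The genes described here are 8 genes of the cardiac sarcomere (Myh6, Myh7, Tnnt2, Tnni3, Actc1, Ttn, Myl2 and Mybpc3) and the 2 natriuretic peptide genes Nppa and Nppb. They were taken by name from a table of 18024 genes, and all 10 were found. RNA was sequenced from heart, pancreas, kidney, ovary and small intestine of C57BL/6j mice 60 days after birth, 24 hours after acute activation of p53. Control mice, called Tg, kept Mdm2, a ubiquitin ligase that marks p53 for degradation (genotype Mdm2+/- Cag-CreERTg). FMTg mice had lost Mdm2 (genotype Mdm2FM/- Cag-CreERTg). Both groups therefore carried 1 null Mdm2 allele and the Cag-CreERTg transgene, an inducible Cre recombinase under the broadly active CAG promoter, so a difference between them is not one between mutant and wild-type mice. Each tissue had 3 Tg and 5 FMTg libraries. In all, 3 Tg mice gave the Tg libraries of every tissue and 10 FMTg mice gave the FMTg libraries, 40 libraries together. Replicates are numbered within a tissue, so that an FMTg replicate number can stand for different mice in different tissues.

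The sarcomere is the contractile unit of striated muscle. Thick filaments of myosin, with heavy chains, light chains and myosin-binding protein C, pull on thin filaments of actin whose access is set by calcium through the troponin complex, and titin spans from the Z-disc to the M-band as an elastic ruler. The adult mouse ventricle uses mainly the fast alpha myosin heavy chain (Myh6) and the fetal ventricle mainly the slow beta chain (Myh7). Atrial natriuretic peptide (Nppa) and B-type natriuretic peptide (Nppb) are hormones that lower blood pressure and volume. In adult mice Nppa is mainly an atrial transcript, and a rise of Nppa, Nppb and Myh7 with a fall of Myh6 in the ventricle is the classical fetal gene response to cardiac stress.

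The 4 genes of that response sit as neighbours in 2 pairs in GENCODE M21 on GRCm38. Myh6 (ENSMUSG00000040752.16) lies at chr14:54941921-54966927 and Myh7 (ENSMUSG00000053093.16) at chr14:54970684-54994626, both on the minus strand. Nppb (ENSMUSG00000029019.8) lies at chr4:147985788-147987205 and Nppa (ENSMUSG00000041616.9) at chr4:148000722-148002079, both on the plus strand. Their promoter windows are printed because the 2 genes of each pair went opposite ways in some heart libraries, as described below. Myh6 was lowest and Myh7 highest in FMTg replicate 2. Nppb was lowest in FMTg replicate 5, where Nppa lay above all Tg hearts. In other hearts they went the same way, as did Nppa and Nppb, both highest in FMTg replicate 2. Each window holds 250 bases before and 50 after the start given by RefSeq (GRCm38.p6), read 5′ to 3′ on the strand of the gene. Capitals mark matches, on either strand, to TATAAA (the TATA box), GATAA (bound by GATA factors), CATTCC (bound by TEAD factors) and TNAAGTG (bound by NKX2-5), and no 2 matches in a window overlap.
Myh6, chr14:54966558-54966857, minus strand: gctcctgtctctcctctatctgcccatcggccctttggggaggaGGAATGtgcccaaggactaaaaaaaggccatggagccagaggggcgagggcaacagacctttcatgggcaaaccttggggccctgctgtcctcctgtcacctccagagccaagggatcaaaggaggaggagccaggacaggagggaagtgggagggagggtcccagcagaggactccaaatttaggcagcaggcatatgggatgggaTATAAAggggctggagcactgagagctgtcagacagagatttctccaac
Myh7, chr14:54994577-54994876, minus strand: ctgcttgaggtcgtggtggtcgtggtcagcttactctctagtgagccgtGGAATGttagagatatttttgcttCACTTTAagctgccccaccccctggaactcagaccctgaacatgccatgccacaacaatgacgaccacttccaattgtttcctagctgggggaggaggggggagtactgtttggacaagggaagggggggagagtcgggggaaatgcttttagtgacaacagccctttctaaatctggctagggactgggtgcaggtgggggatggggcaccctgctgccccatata
Nppa, chr4:148000472-148000771, plus strand: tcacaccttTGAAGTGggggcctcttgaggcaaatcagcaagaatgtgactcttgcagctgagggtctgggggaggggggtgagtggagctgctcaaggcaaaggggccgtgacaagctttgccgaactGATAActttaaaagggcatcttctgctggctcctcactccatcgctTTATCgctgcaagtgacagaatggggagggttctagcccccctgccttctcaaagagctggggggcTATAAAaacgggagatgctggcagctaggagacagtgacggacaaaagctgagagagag
Nppb, chr4:147985650-147985949, plus strand: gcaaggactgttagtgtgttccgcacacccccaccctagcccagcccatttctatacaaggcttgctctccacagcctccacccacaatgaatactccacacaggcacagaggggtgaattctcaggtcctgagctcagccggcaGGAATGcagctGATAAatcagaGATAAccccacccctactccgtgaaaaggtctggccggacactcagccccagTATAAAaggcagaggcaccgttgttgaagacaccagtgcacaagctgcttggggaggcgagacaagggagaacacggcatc

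Of the 9 members with a window at an annotated start, TATAAA was found in 4, Myh6, Actc1, Nppa and Nppb, and not in Myh7. It occurs in 13.6% of all 32544 windows in the table. Its offset from the start was -31 in Nppb, -9 in Nppa, 1 in Myh6 and 33 in Actc1. GATAA was found in 5 of the 9, in 2 places each in Nppa, Nppb, Tnnt2 and Tnni3 and in 1 in Mybpc3. It occurs in 25.3% of all windows. CATTCC was found in 5 of the 9, Myh6, Myh7, Nppb, Tnnt2 and Ttn, and in 14.6% of all windows. TNAAGTG was found in 2 of the 9, Myh7 and Nppa, and in 11.5% of all windows. The CArG box, bound by SRF, was found in 1 of the 9 members with a window at an annotated start, the cardiac actin gene Actc1, and in 1.64% of all windows. The MEF2 box was found in Ttn and Mybpc3 and in 3.16% of all windows. Both windows listed for Myl2 begin 7762 bases or more from an annotated start and were not searched. A match in these letters is a description and not a binding site.

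The heart libraries held 15.3 to 29.03 M (mega) reads, and libraries of all tissues 7.16 to 29.03 M. Values are reads divided by the size factor of the library (normalised reads) or the deposited log2 values. Mdm2 itself had 1069, 1140 and 1033 normalised reads in the Tg hearts and 1930, 3113, 2098, 1424 and 1318 in the FMTg hearts. All 5 FMTg values lay above the Tg values. Its gene total does not check the deletion, because the removed part is not named in the labels and p53 itself raises Mdm2. Heart FMTg replicates 4 and 5 differ from the other 6 hearts in sex, since the Y-linked gene Ddx3y had 1658 and 2343 normalised reads there and at most 1.89 elsewhere. No Tg heart had such a level, so within the FMTg hearts sex and mouse series cannot be told apart. Heart FMTg replicate 2 stands apart from the rest for many of the genes described here, and the log2 changes and shares in the heart are therefore also given without these libraries.

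In Tg hearts the levels per kb of the principal transcript ordered the 10 genes from Myl2 to Myh7. Myl2, the regulatory light chain of the ventricle, stood at 81574 ± 14096 normalised reads per kb (SD, n = 3) and Myh6 at 57457 ± 5544. Tnni3, the inhibitory troponin I of the adult heart, stood at 41122 ± 5102 and Tnnt2, the cardiac troponin T that binds tropomyosin, at 36735 ± 8299, and their ranges overlapped. Below them came Actc1 at 18673 ± 5046, Mybpc3, the cardiac myosin-binding protein C, at 12519 ± 1722, and Ttn at 7996 ± 1071. Nppa stood at 6379 ± 469, Nppb at 3773 ± 660 and Myh7 at 2533 ± 876 reads per kb. The ranges of Nppb and Myh7 overlapped, from 3100 to 4419 and from 1533 to 3164. Per gene and not per kb, Ttn gave the most reads, with 739938 to 926952 normalised reads, since its principal transcript is 100404 bases long.

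**Figure D1:**
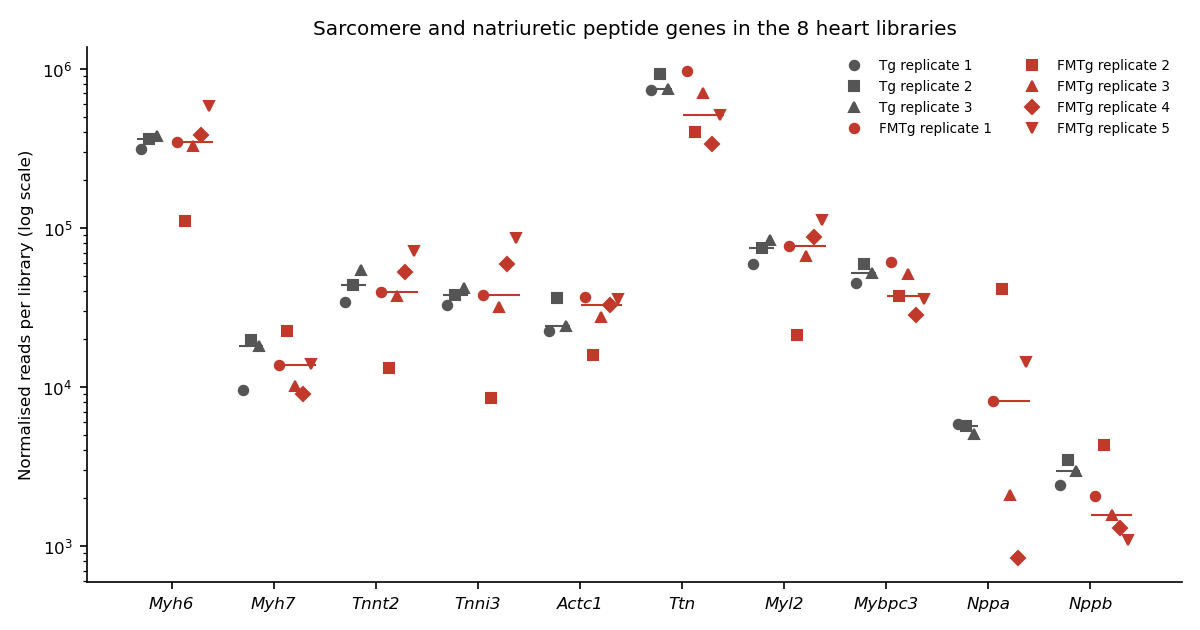
Normalised reads (log scale) of the 10 genes in each heart library, grey for Tg and red for FMTg, with the marker shape giving the replicate and the bar the group median. FMTg replicate 2 (red squares) is the lowest library for Myh6, Tnnt2, Tnni3, Actc1 and Myl2 and the highest for Myh7, Nppa and Nppb.

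In the heart none of the 10 genes passed the test between FMTg and Tg at 24 hours. The limma test on the deposited log2 values called 0 of 10 at a Benjamini-Hochberg adjusted p below 0.05, and 0 of 10 had an unadjusted p below 0.05. Over all genes tested, 3 of 15769 were called (0.019%) and 998 (6.33%) had an unadjusted p below 0.05. The groups overlapped for each of the 10, against 1091 genes (6.92%) whose groups did not overlap. The median log2 change (FMTg minus Tg) of the 10 genes was -0.18, and that of all genes -0.01. Because the libraries were made from bulk tissue, fewer cells of a type and less RNA per cell cannot be told apart in any value given here.

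Among the thick filament genes, Myh6 had 312795, 364087 and 376813 normalised reads in the Tg hearts and 349153, 110672, 328955, 384770 and 584451 in the FMTg hearts. FMTg replicate 2 was the lowest and replicate 5 the highest of the 8. The log2 change of Myh6 was -0.18 ± 1.14 (SE, limma, 3 and 5 libraries, adjusted p = 0.976), and 0.20 without FMTg replicate 2. Myh7 had 9550, 19713 and 18073 in the Tg hearts and 13645, 22532, 10196, 9036 and 13965 in the FMTg hearts. Here FMTg replicate 2 was the highest library, and the Tg hearts themselves were spread from 9550 to 19713. Its log2 change was -0.19 ± 0.36 (adjusted p = 0.893), and -0.39 without FMTg replicate 2. Myl2 had 58958, 74926 and 83672 against 77301, 21145, 66442, 88003 and 111308, with the same lowest and highest FMTg libraries as Myh6. Its log2 change was -0.17 ± 0.59 (adjusted p = 0.953), and 0.23 without FMTg replicate 2. Without FMTg replicates 4 and 5 the changes were -0.59 for Myh6, -0.04 for Myh7 and -0.59 for Myl2, and none passed the test.

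Mybpc3 had 45054, 59386 and 51911 normalised reads in the Tg hearts and 61136, 37472, 51252, 28378 and 35755 in the FMTg hearts. FMTg replicates 2, 4 and 5 lay below all Tg libraries. The log2 change was -0.33 ± 0.36 (adjusted p = 0.813, two-sided exact permutation p = 0.268). Ttn, the gene of titin, had 739938, 926952 and 741518 in the Tg hearts and 964327, 403318, 708998, 338043 and 511696 in the FMTg hearts, so 4 FMTg libraries lay below all Tg libraries and 1 above. Its log2 change was -0.55 ± 1.72 (adjusted p = 0.944), and the exact permutation p was 0.161. The limma errors rest on a variance trend fitted over all genes and are wider than the spread of the Ttn values alone, whose SD was 0.19 in the Tg and 0.61 in the FMTg hearts. In limma without that trend the errors were 0.35 for Ttn and 0.48 for Myh6, with adjusted p of 0.782 and 0.935. Without FMTg replicate 2 the changes were -0.44 for Ttn and -0.29 for Mybpc3, and without replicates 4 and 5 they were -0.29 and -0.08. Without all 3 of these libraries they were 0.05 and 0.11. That set was chosen after the values were seen. It leaves out the 3 lowest hearts of both genes, so it does not check the changes.

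Among the thin filament genes, Tnnt2 had 34249, 43834 and 54162 normalised reads in the Tg hearts and 39306, 13075, 37576, 52995 and 71744 in the FMTg hearts. Tnni3 had 32625, 37992 and 41892 against 38124, 8478, 32002, 59703 and 86464, the widest spread of the sarcomere genes. Actc1 had 22371, 36029 and 24115 against 36649, 15780, 27499, 32713 and 35680. For all 3 the lowest of the 8 hearts was FMTg replicate 2. The log2 changes were -0.21 ± 0.54 for Tnnt2, -0.09 ± 0.68 for Tnni3 and 0.08 ± 0.35 for Actc1, with adjusted p of 0.928, 0.981 and 0.963. Without FMTg replicate 2 they were 0.17, 0.43 and 0.29, and without replicates 4 and 5 they were -0.69, -0.78 and -0.10. None passed the test in either set.

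Nppb had the smallest adjusted p of the 10 genes in the heart. Its levels were 2421, 3451 and 2968 normalised reads in the Tg hearts and 2055, 4288, 1559, 1297 and 1093 in the FMTg hearts. All FMTg libraries but replicate 2 lay below all Tg libraries and replicate 2 lay above them. The log2 change was -0.69 ± 0.40 (adjusted p = 0.760, exact permutation p = 0.214), and -0.995 without FMTg replicate 2 (adjusted p = 0.461). Without replicates 4 and 5 it was -0.28 (adjusted p = 0.828). Nppa had 5824, 5673 and 5058 in the Tg hearts, an SD of 0.11 on the log2 scale. The FMTg hearts had 8209, 41530, 2086, 840 and 14251, an SD of 2.23, with 3 libraries above and 2 below all Tg libraries. Its log2 change was 0.15 ± 1.11 (adjusted p = 0.979), and -0.54 without FMTg replicate 2 and 0.70 without replicates 4 and 5.

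**Figure D2:**
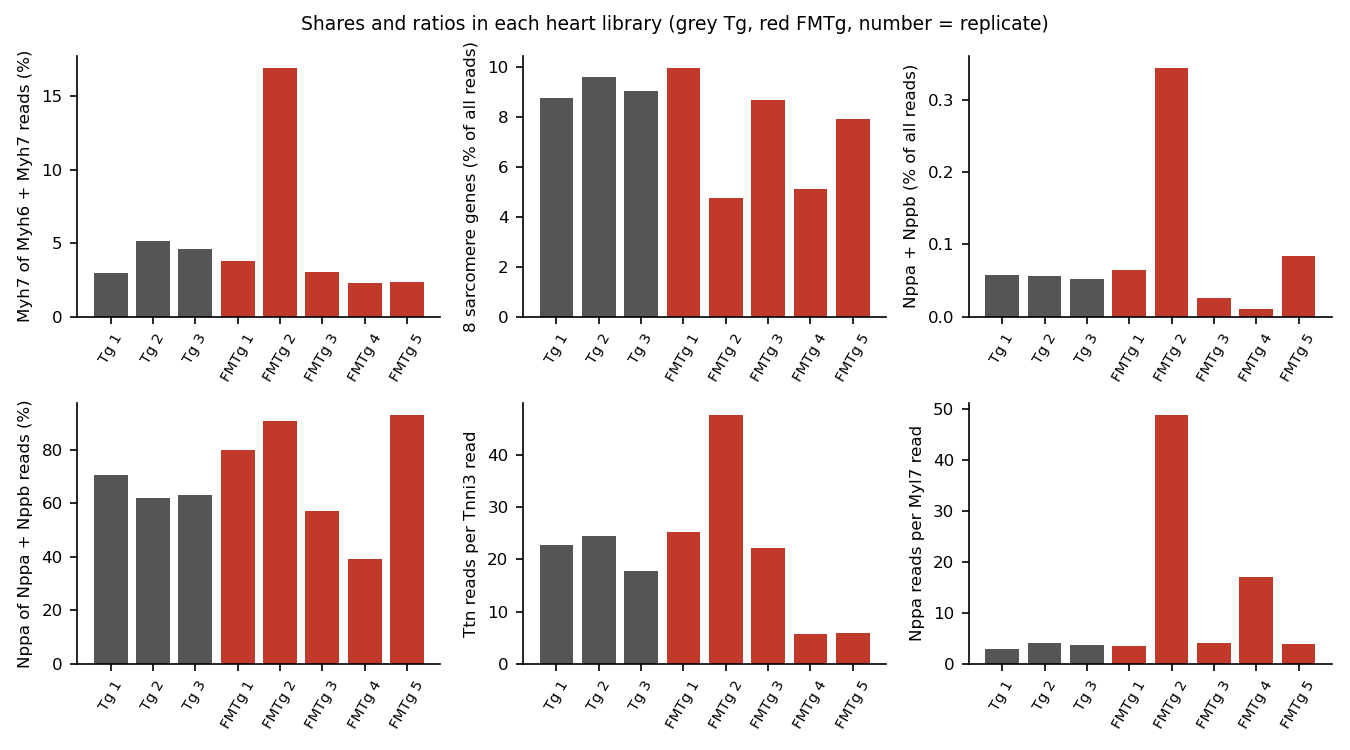
Shares and ratios in each heart library, grey for Tg and red for FMTg, on linear axes that start at 0. FMTg replicate 2 is highest for the Myh7 share (16.9%), the Nppa plus Nppb share (0.344%) and Nppa reads per Myl7 read (48.7), and FMTg replicates 4 and 5 are lowest for Ttn reads per Tnni3 read (5.66 and 5.92).

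The myosin heavy chain balance was measured as the share of Myh7 in the reads of Myh6 plus Myh7. In the Tg hearts it was 2.96%, 5.14% and 4.58%, and in the FMTg hearts 3.76%, 16.9%, 3.01%, 2.29% and 2.33%. FMTg replicate 2 lay far above the other 7, and replicates 4 and 5 below all Tg hearts. The means were 4.23% ± 1.13 (SD, n = 3) and 5.66% ± 6.32 (n = 5), with a two-sided exact permutation p of 0.964. Without FMTg replicate 2 the difference was -1.38 percentage points (exact p = 0.143), and without replicates 4 and 5 it was 3.67 points (exact p = 0.800). The 95% Wilson interval of a single library was narrow, 16.7% to 17.1% in FMTg replicate 2, and covers counting error only. Of the 32-base stretches in the exons of Myh6, 28.5% also occur in Myh7, and 22.1% of those of Myh7 occur in Myh6, so these shares depend on how reads shared by both genes were counted.

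The 8 sarcomere genes together took 8.77%, 9.60% and 9.05% of all reads in the Tg hearts. In the FMTg hearts they took 9.97%, 4.75%, 8.69%, 5.12% and 7.92%. The means were 9.14% ± 0.42 and 7.29% ± 2.27, with an exact permutation p of 0.250. The difference of -1.85 points became -1.22 without FMTg replicate 2 and -1.34 without replicates 4 and 5. The low values are those of FMTg replicates 2 and 4. Nppa plus Nppb took 0.0576%, 0.0560% and 0.0522% of reads in the Tg hearts and 0.0648%, 0.344%, 0.0251%, 0.0110% and 0.0837% in the FMTg hearts. The means were 0.0553% ± 0.0028 and 0.106% ± 0.136 (exact p = 0.804). The difference of 0.0505 points became -0.00913 without FMTg replicate 2 and 0.0894 without replicates 4 and 5. Nppa made up 70.6%, 62.2% and 63.0% of these reads in the Tg hearts and 80.0%, 90.6%, 57.2%, 39.3% and 92.9% in the FMTg hearts (exact p = 0.679). That difference of 6.73 points became 2.07 without FMTg replicate 2 and 10.67 without replicates 4 and 5.

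FMTg replicate 2 had lower levels of 7 of the 8 sarcomere genes and higher levels of Myh7, Nppa and Nppb than the median of the other hearts. Relative to the median of the other 7 hearts, its level was 0.222 times for Tnni3, 0.274 for Myl2, 0.298 for Tnnt2, 0.304 for Myh6 and 0.482 for Actc1. Ttn stood at 0.545 times and Mybpc3 at 0.731 times. Nppa stood at 7.32 times, Nppb at 2.09 times and Myh7 at 1.65 times that median. Of the genes picked out after their values were seen, Postn, a matrix protein of activated fibroblasts, had 14456 normalised reads against 446 to 1573 in the other hearts, and Timp1, an inhibitor of metalloproteinases, had 1509 against 34.4 to 215. The collagen genes Col3a1 and Col1a1 had 56645 and 19717, against highest values elsewhere of 10776 and 3888. Not all genes of the stress and remodelling list were at their highest here: Xirp1, an actin-binding protein of the intercalated disc, was at its lowest of the 8 hearts (2323 normalised reads), and its relative Xirp2 was higher in FMTg replicates 4 and 5 (14250 and 14304) than in replicate 2 (12749). The summed level of the 6 fibroblast markers was 109271 in this heart, 18538 to 22473 in the Tg hearts and 27616 to 42096 in the other FMTg hearts. In this 1 mouse Postn, Timp1 and the collagen genes were high while 7 of the 8 sarcomere genes were low. The part of these matrix genes and of the fibroblast markers in its heart muscle values was not tested.

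The 2 male hearts, FMTg replicates 4 and 5, shared another pattern among the sarcomere genes. Ttn reads per Tnni3 read were 22.7, 24.4 and 17.7 in the Tg hearts, 25.3, 47.6 and 22.2 in FMTg replicates 1 to 3, and 5.66 and 5.92 in replicates 4 and 5. Mybpc3 per Tnni3 was 0.475 and 0.414 in replicates 4 and 5, and 1.24 to 4.42 in the other 6. Relative to FMTg replicates 1 to 3, the mean log2 value of replicates 4 and 5 was higher by 1.72 for Tnni3, 1.20 for Tnnt2, 1.05 for Myl2 and 1.02 for Myh6. It was lower for Ttn (-0.65), Mybpc3 (-0.62), Nppb (-1.005) and Nppa (-1.36). The mean of FMTg replicates 1 to 3 includes replicate 2, the lowest heart for Tnni3, Tnnt2, Myl2 and Myh6. That library was also the highest heart for Nppa and Nppb, so part of the differences of these genes comes from it. Nppa was not alike in the 2 male hearts, with 840 normalised reads in replicate 4 and 14251 in replicate 5. Over all genes with a length the median difference of replicates 4 and 5 from replicates 1 to 3 was -0.13. By exonic length it was -0.11 under 1 kb, 0.12 for 1 to 2 kb, -0.03 for 2 to 4 kb, -0.18 for 4 to 8 kb and -0.27 over 8 kb. Nppa and Nppb, with 865 and 781 exonic bases, belong to the shortest class, which does not continue the order of the longer ones. The part of transcript length in the values of the members was not tested.

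**Figure D3:**
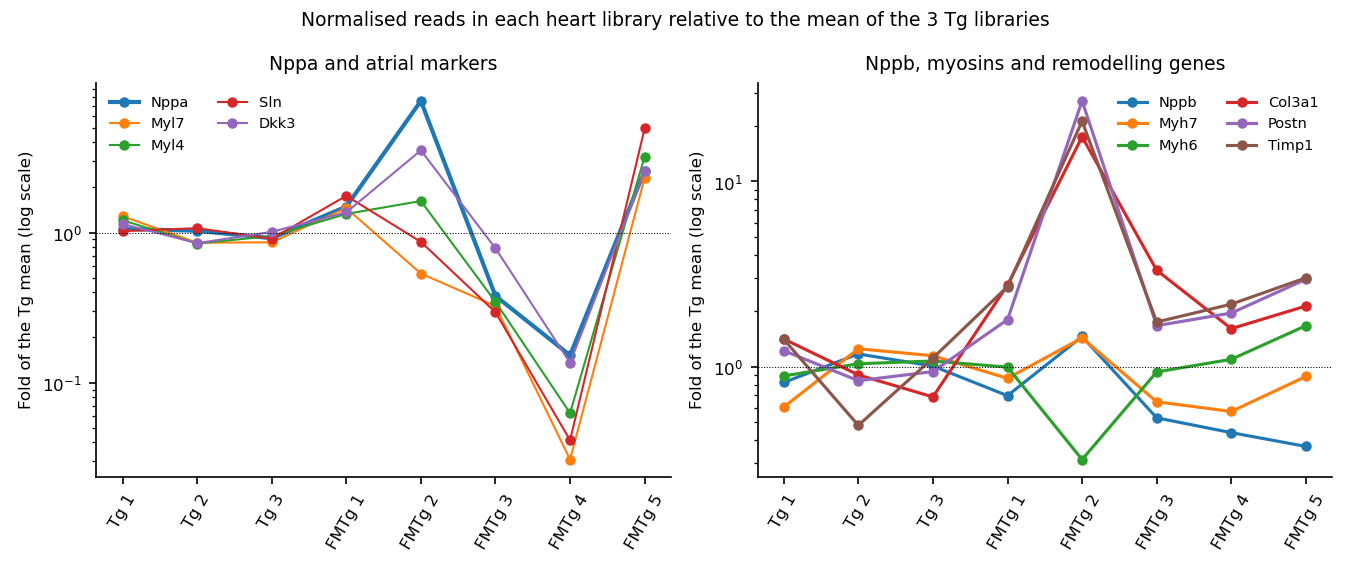
Fold of the Tg mean (log scale) in each heart library for Nppa and atrial markers (left) and for Nppb, the myosin heavy chains and remodelling genes (right); lines only join the points of a gene. Nppa, Myl7, Myl4, Sln and Dkk3 all lie below the Tg mean in FMTg replicates 3 and 4 and above it in replicates 1 and 5, and in FMTg replicate 2 Nppa stands above the other 4.

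Nppa was lowest in the same heart as several of the atrial markers, FMTg replicate 4. Myl7, the atrial regulatory light chain, had 2056, 1369 and 1378 normalised reads in the Tg hearts and 2329, 853, 518, 49.2 and 3706 in the FMTg hearts. Nppa reads per Myl7 read were 2.83, 4.14 and 3.67 in the Tg hearts and 3.52, 4.03 and 3.85 in FMTg replicates 1, 3 and 5. In FMTg replicate 4, with the lowest level of both, the ratio was 17.1, and in replicate 2 it was 48.7. Myl4, the atrial essential light chain, ran from 138 in FMTg replicate 4 to 7058 in replicate 5. Sln, a small inhibitor of the calcium pump SERCA, ran from 15.1 to 1806 in the same libraries. Bmp10, an atrial growth factor of the right side, was at 0 reads in FMTg replicate 3 and 2 reads in Tg replicate 3, while FMTg replicate 5 had 3649 reads. Nr2f2, a transcription factor of the atrial list, went another way, with 442, 295 and 387 normalised reads in the Tg hearts and 225, 422, 413, 515 and 506 in the FMTg hearts, highest in replicate 4.

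The summed level of the 8 atrial markers, Nppa among them, was 10421 to 13081 normalised reads in the Tg hearts and 1797 to 51272 in the FMTg hearts. None of the 8 was called between the groups and none had an unadjusted p below 0.05. The 5 ventricular markers, Myl2 among them, summed to 92719 to 132657 in the Tg hearts and 34961 to 153338 in the FMTg hearts. How much atrium each sample held is not given in the labels, and its part in the spread of Nppa was not tested. Reads of pancreatic acinar genes were also found in the hearts, with a sum over 6 markers of 13079 to 39444 in the Tg and 56.8 to 33420 in the FMTg libraries.

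The genes whose values lay nearest to those of Nppa over the 8 hearts, each centred on its own mean, were Mlana, Dkk3, Ereg, Slc13a4 and Tmem163. Their mean absolute difference from Nppa was 0.36 to 0.49 on the log2 scale, against a mean absolute deviation of Nppa itself of 1.14. Nearest to Nppb were Slc43a2, Gabarapl2, Ccng2, Rnf165 and Ypel1, at 0.18 to 0.22 against 0.57. For Myh7 they were Trib3, Mafk, Zscan18, Hist1h2ac and Pmm1, at 0.16 to 0.20 against 0.40. For the mean of the 8 sarcomere genes they included Fem1a, Atpaf1, Mpped2 and Dele1, at 0.03 to 0.06 against 0.30. Atpaf1 encodes an assembly factor of ATP synthase. These 5-gene lists were drawn from 15177 named genes and describe these 8 libraries only.

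Other genes of the contractile apparatus did not pass the test in the heart either. Of 7 other thick filament genes 0 were called, with a median log2 change of -0.52, and of 7 other thin filament genes 0, with a median of 0.14. Myh7b, a slow-type myosin heavy chain, had 1283 to 2187 normalised reads in the Tg hearts and 272 to 1937 in the FMTg hearts (log2 change -1.14 ± 0.62, adjusted p = 0.760). Acta1, the skeletal actin that is also a fetal cardiac gene, had a change of 0.60 ± 0.31 (adjusted p = 0.760). Of 11 Z-disc genes 0 were called, and of 6 M-band and giant protein genes 0, with medians of -0.22 and -0.34 against -0.01 for all genes. In the last list Alpk3, a kinase-like protein, had an unadjusted p of 0.0311, with a log2 change of -0.64 ± 0.25 (adjusted p = 0.760). Flnc, which crosslinks actin at the Z-disc, changed by -0.66 ± 0.30 (adjusted p = 0.760).

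In the natriuretic peptide system 0 of 8 tested genes were called. Furin, a protease that cleaves the precursor of B-type natriuretic peptide, had 3590, 3623 and 3695 normalised reads in the Tg hearts and 2354, 2182, 3107, 2453 and 2163 in the FMTg hearts. All FMTg values lay below all Tg values. The log2 change was -0.58 ± 0.14 (unadjusted p = 0.00304, adjusted p = 0.694), so it did not pass. Pcsk6, which activates corin, had 890, 1067 and 802 against 1232, 1555, 1454, 2683 and 1399, again without overlap (0.80 ± 0.24, adjusted p = 0.760). Groups without overlap occurred for 6.92% of all genes tested. Corin, the protease of the atrial peptide precursor, had a change of -0.41 ± 0.34 and Npr3, the clearance receptor, one of 0.40 ± 0.47.

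Of 13 cardiac transcription factors 0 were called. Mef2d and Tead1 had log2 changes of -0.68 ± 0.19 and -0.55 ± 0.22, and Mef2c one of 0.52 ± 0.18, each with an adjusted p of 0.760. Of 10 calcium handling genes 0 were called. Pln, the inhibitor of the calcium pump, ranged from 3649 normalised reads in FMTg replicate 2 to 32489 in replicate 1 (1.04 ± 0.77, adjusted p = 0.764). Of 12 stress and remodelling genes 0 were called, and 3 had an unadjusted p below 0.05 in the higher and 2 in the lower direction. Over all genes tested, 6.33% had an unadjusted p below 0.05 in either direction. Ankrd1, a stretch-induced muscle protein, had 4097, 6288 and 7389 normalised reads in the Tg hearts and 10812, 13782, 6932, 12316 and 11174 in the FMTg hearts (0.90 ± 0.27, adjusted p = 0.760). Xirp2, an actin-binding protein of the intercalated disc, changed by 0.89 ± 0.28 with the same adjusted p.

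Markers of other cell types were read beside these values. Of 6 macrophage markers 0 were called and 5 had an unadjusted p below 0.05, against 6.33% of all genes tested. All 5 were higher in FMTg. The median log2 change of the 6 markers was 1.11. Their sum was 3870 to 5799 normalised reads in the Tg hearts and 6589 to 15216 in the FMTg hearts, without overlap. The fibroblast marker sum did not overlap either (18538 to 22473 against 27616 to 109271), with 0 of 6 called. Among all single genes tested, 6.92% had groups without overlap. Endothelial markers summed to 14131 to 18742 in the Tg hearts and 16442 to 26245 in the FMTg hearts. Smooth muscle, adipocyte, mesothelial and erythroid lists had 0 called of 8, 6, 4 and 6 genes, and the sums of their groups overlapped. Of 11 tested skeletal muscle markers 0 were called, and the defining Myh1 had 134 normalised reads in FMTg replicate 4 and 0 to 10.1 in the other hearts. Of the lung markers only Ager was tested, and it was not called. The part of these cell types in the values of the heart muscle genes was not tested. Of 12 p53 targets 3 were called in the heart, Eda2r, Phlda3 and Aen. All 12 had positive log2 changes and unadjusted p below 0.05. Over all genes tested, 0.019% were called and 6.33% had an unadjusted p below 0.05.

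**Figure D4:**
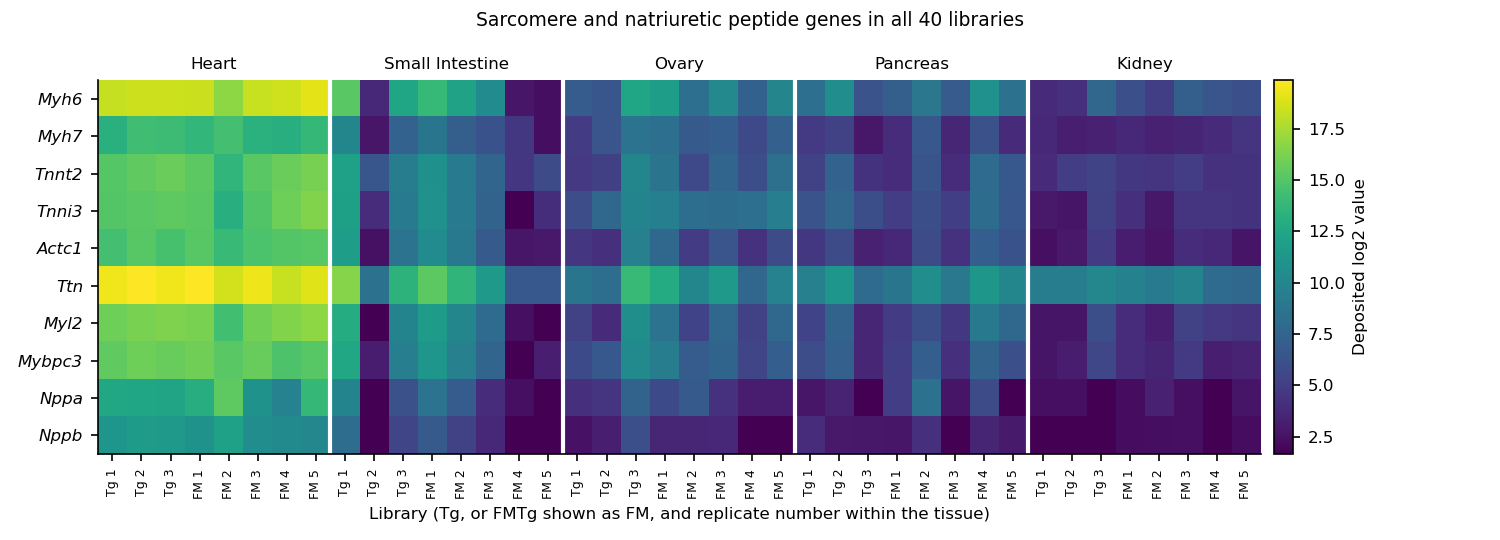
Deposited log2 values of the 10 genes in all 40 libraries, with replicates numbered within each tissue. For 9 of the 10 genes every heart library is brighter than every other library, with Nppa in heart FMTg replicate 4 as the exception. Single libraries of small intestine (Tg replicates 1 and 3, FMTg replicates 1 to 3) and ovary (Tg replicate 3, FMTg replicate 1) stand above the others of their tissue. Ovary FMTg replicate 1 does so for the sarcomere genes and not for Nppa and Nppb.

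Across the Tg tissues all 10 genes were highest in the heart. In a limma model of the 15 Tg libraries, heart minus the mean of the other 4 tissues, all 10 were called higher, against 26.9% of 17294 genes called higher and 30.2% called lower. The members are known cardiac genes, so this checks the tissue labels. The log2 difference ran from 8.03 ± 1.00 for Nppb (SE, adjusted p = 1.90e-05) to 10.24 ± 1.91 for Myh6 (adjusted p = 5.14e-04). Myh6 and Myl2 had the largest and second largest differences of all genes tested, and all 10 ranked within the first 26. The order of mean log2 levels was heart, small intestine, ovary, pancreas and kidney for each of the 10 genes. The heart did not overlap with any other Tg tissue, while small intestine and ovary overlapped for all 10, ovary and pancreas for 9 and pancreas and kidney for 8.

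Outside the heart none of the 10 genes was called between FMTg and Tg, and none had an unadjusted p below 0.05 in any tissue. In the pancreas 0 of 10 were called, against 68 of 15262 genes (0.446%). That count was 9 without Tg replicate 1 and without Tg replicate 2, 24 without Tg replicate 3, 29 without FMTg replicate 1 and 42 without FMTg replicate 2 or 5. In the kidney 0 of 8 tested were called against 95 of 15415 (0.616%), and Nppa and Nppb fell under the filter on low values. The kidney count was 47, 46 and 52 without Tg replicates 1, 2 and 3. Kidney FMTg replicates 4 and 5 come from the mice of the male hearts, and the Tg kidneys from the mice of the Tg hearts. Sex is therefore unevenly spread over the kidney groups too, and its part in the kidney count was not tested. In the ovary and small intestine 0 of 10 were called, against 0 of 16486 and 0 of 16104 genes (0% in both), of which 1049 and 388 had an unadjusted p below 0.05. The test of the heart effect minus the mean effect of the other 4 tissues called 0 of 10, with adjusted p of 1.00 for each, against 3 of 15769 genes (0.019%). The standard errors of that difference were 1.12 to 2.26 on the log2 scale, which limits what could be seen.

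The small intestine libraries differed widely, with cardiac reads in 5 of the 8 and almost none in the other 3. Myh6 had 48207, 8 and 5443 reads in the Tg and 20469, 4938, 1583, 2 and 1 reads in the FMTg small intestine libraries. The 10 genes together took 1.20% of all reads in Tg replicate 1 and 0.453% in FMTg replicate 1. In FMTg replicates 4 and 5, from mice with no heart library here, they took 9.48e-04% and 0.00109%. Tnnt2 kept 87, 19 and 78 reads in the 3 libraries almost without Myh6, which are Tg replicate 2 and FMTg replicates 4 and 5. Because libraries with and without cardiac reads occur in both genotypes, the log2 change of Myh6 in this tissue was -2.12 ± 3.41 (adjusted p = 0.990).

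**Figure D5:**
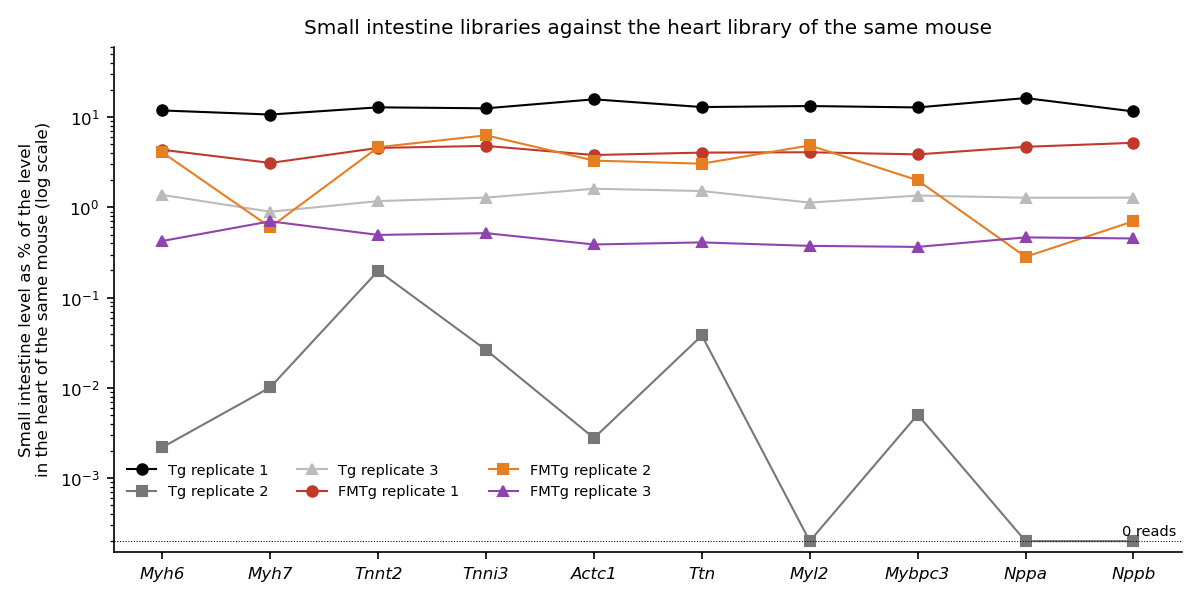
Normalised reads in each small intestine library as a percentage of the level in the heart library of the same mouse (log scale), for the 6 mice with both; points on the dotted line had 0 reads. Tg replicates 1 and 3 and FMTg replicates 1 and 3 run almost level across the 10 genes, while FMTg replicate 2 dips at Myh7, Nppa and Nppb.

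In most of these libraries the 10 genes stood in nearly the same proportions as in a heart. In small intestine Tg replicate 1 the level was 10.7% (Myh7) to 16.3% (Nppa) of that in the heart of the same mouse, with a median of 12.9%. It was 0.896% to 1.61% in Tg replicate 3, 3.11% to 5.20% in FMTg replicate 1 and 0.365% to 0.701% in FMTg replicate 3. Other heart muscle genes followed these levels less evenly. The median of the other thick filament genes was 14.02% in Tg replicate 1 and 4.29% in FMTg replicate 1, but 3.25% in Tg replicate 3 and 1.45% in FMTg replicate 3, where the medians of the 10 genes were 1.28% and 0.439%. Single calcium handling genes reached 99.1% to 151% of the heart level in the 6 small intestine libraries with a heart of the same mouse. In FMTg replicate 2 the percentages spread from 0.284% (Nppa) to 6.30% (Tnni3). Compared as profiles over the 10 genes, that library lay farther from its own heart than from each of the other 7, with a mean absolute log2 difference of 1.25 against 0.13 for the nearest, Heart FMTg replicate 1. Whether the small intestine and heart libraries labelled FMTg replicate 2 come from the same mouse was not tested, so percentages of the own heart rest on the labels here. For Tg replicate 1 the own heart was nearest, at 0.13, and for Tg replicate 3 and FMTg replicate 1 it was second, at 0.16 in both.

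The ratio of Nppa to Myh6 also differed between the heart and small intestine of the mouse labelled FMTg replicate 2 in every tissue. Nppa reads per 1000 Myh6 reads were 375 in its heart and 2.18 to 24.4 in the other 7 hearts. In the pancreas, ovary and kidney of this mouse they were 749, 342 and 171, from 176, 124 and 6 Nppa reads. The 95% Wilson bounds were 616 to 910 in the pancreas, 279 to 419 in the ovary and 73.9 to 397 in the kidney. In its small intestine the ratio was 26.1 (21.9 to 31.1), from 129 Nppa and 4938 Myh6 reads. The 4 other small intestine libraries with more than 1000 Myh6 reads had ratios of 6.95 to 25.5. The other libraries of pancreas, ovary and kidney had ratios of at most 186, 173 and 90.9. The bounds of these highest ratios were 104 to 333, 107 to 280 and 15.1 to 548. In the ovary and kidney they overlapped the bounds of this mouse, and in the pancreas they did not. The kidney ratio of 90.9 came from 1 Nppa and 11 Myh6 reads. For Myh7 reads per 1000 Myh6 reads the values in the same mouse were 204 in the heart, 196 in the pancreas, 339 in the ovary, 171 in the kidney and 30.2 in the small intestine, while the other ovaries ranged from 71.9 to 909, the other kidneys from 23.5 to 818 and the other pancreas libraries from 20.5 to 71.4. These ratios were compared after their values were seen, and how heart transcripts came into the libraries of other tissues was not tested.

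In the other 3 tissues the levels were low but did not keep cardiac proportions throughout. Ovary Tg replicate 3 held 33990 reads of the 10 genes and FMTg replicate 1 held 21140, against 592 to 6260 in the other ovaries. In ovary FMTg replicate 2 Tnni3 stood at 3.41% of the level in the heart of the same mouse, while the median of the 10 genes was 0.270%. Pancreas libraries held 180 to 1793 reads of the 10 genes. In the kidney Ttn was the member with the highest percentage of the heart level in the 6 libraries of Tg replicates 1 to 3 and FMTg replicates 1 to 3, at 0.0683% to 0.146%, and Myh7 was in FMTg replicates 4 and 5. Nppb had 0 reads in all 3 Tg kidneys and 0 or 1 in the FMTg kidneys. The highest level outside the heart lay below the lowest heart library for 9 of the 10 genes. The exception was Nppa, with 949 normalised reads in small intestine Tg replicate 1 and 840 in heart FMTg replicate 4.

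Some readings depend on annotation. Of the exonic bases of Nppa 61.5% are overlapped by Gm13054 on the opposite strand, and of those of Myh7 13.3% by antisense genes that include Mhrt. The strand setting of the counting is not given in the sources used here, so reads of these genes and their antisense partners cannot be told apart. Tnnt2 lies at chr1:135836354-135852260, Tnni3 at chr7:4518305-4524229, Actc1 at chr2:114047282-114053548, Ttn at chr2:76703980-76982547, Myl2 at chr5:122100951-122113472 and Mybpc3 at chr2:91118144-91136516. For each of these 6 genes at most 4.17% of exonic bases are overlapped by another gene.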

How the data were processed

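Messenger RNA was sequenced from flash-frozen tissue after Trizol extraction, per the labels' protocols. Per the submitters' processing notes, STAR 2.6.0b, the mouse build GRCm38 and DESeq2 were used. The read counter, annotation release and strand setting are not given in the sources used here. The table deposited by the authors holds log2 values after variance stabilisation over all 40 libraries, with a lowest value of 1.65 for 0 reads. Inverting the transformation gave whole reads for 100% of values (tolerance 0.01, largest distance 1.21e-07). Shares, ratios and normalised reads use these reads, and 0 columns of other samples are in the table.

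In each tissue FMTg was compared with Tg in limma 3.58.1 (R 4.3.3) with a variance trend, on genes with a mean at least 1 above the lowest value, and Benjamini-Hochberg adjustment over all genes tested. A count model was not used because the deposited unit is log2. Since the table gives 1 value per library, p-values of the tests within a tissue measure the spread between mice. The model of the Tg tissues and that of the difference of effects use several libraries of the same mouse. Their p-values therefore rest on the spread between libraries and not on that between mice alone. For the difference of effects the correlation between libraries of the same mouse was 0.25. Exact permutation tests were two-sided over 56 divisions of 8 libraries, with a smallest possible p of 0.0179. The procedure was also run on simulated reads drawn with the same dispersion for every gene. Those reads lack the spread of Nppa and Tnni3 in the FMTg hearts, so they do not show how well changes of these genes are detected. The Tg tissues share mice, and over pairs of tissues libraries of the same mouse correlated in their deviations at -0.18 to 0.42 (n = 30, median 0.06), libraries of different mice at -0.31 to 0.28 (n = 60, median -0.02). Wilson intervals are at 95% and cover counting error only. Sequences are those of RefSeq, and 9 of 10 members had a window within 150 bases of a GENCODE start. Positions, lengths and overlaps are those of GENCODE M21.

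The 10 members, the lists of related genes and cell type markers, and the tests were chosen with earlier results of these data known. Named genes were the members, Mdm2, up to 4 genes of smallest p in the heart and every called gene in each list, and the 5 nearest genes to Nppa, Nppb, Myh7 and the sarcomere mean. Of the genes this rule names, 2 are not reported here. Postn, Col1a1, Bmp10, Ddx3y, the ratios between members and the ratios across the tissues of 1 mouse were singled out after their values were seen. Alternatives were another filter, scaling or weighting, and leaving out libraries.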

Additional observations from a re-analysis of the deposited data

Results flagged for a closer look

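In 4 cases the value of a single FMTg library lay far from the other 4 of their group, by a gap above 0.71 of the range of the group. Of the 54 groups examined about 1 in 20 would show this by chance. In the heart this held for the Myh7 share of Myh6 plus Myh7 reads in FMTg replicate 2, 16.9%, and its share of reads in Nppa plus Nppb, 0.344%. In the kidney, Nppb had 0 reads in FMTg replicate 4 (log2 value 1.65) where the other 4 libraries had 1 read each, and Tnni3 had 3 reads in FMTg replicate 2 (log2 value 2.85). Both kidney values rest on very few reads.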

How the results depend on the processing

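The counts of members called kept their values under every alternative run: 0 in each tissue, 10 for the Tg heart against the other Tg tissues, and 0 for the difference of effects. The number of genes called in the heart was 3, and it was 10 with no filter on low values, 1 with log2(CPM + 1), 26 with library weights, 22 in 1 model of all libraries, 1 without FMTg replicates 4 and 5, and 0 with a replicate block, with a range of 1 to 4 when single libraries were left out (the cause was not tested). Over the alternatives the count ran from 0 to 568 in the pancreas, 46 to 211 in the kidney, 0 to 51 in the ovary and 0 to 55 in the small intestine, with 0 and 568 in the pancreas from the block and from library weights. Same-numbered Tg and FMTg hearts come from different mice and were not taken as pairs in the main test. Their deviations correlated at 0.19, -0.18 and 0.42, and those of differently numbered hearts at -0.34 to 0.42. Whether same-numbered hearts were handled together is not given in the labels and was not tested. The Myh7 share difference of 1.44 points became -0.016 as a log2 ratio. Leaving out single libraries gave -1.38 to 2.28 points for it and -0.00913 to 0.0742 points for the Nppa plus Nppb share, the lowest values without FMTg replicate 2. Signs of uncalled log2 changes turned for Myh6 (0.048) and Actc1 (-0.071) with quantile normalisation, for Nppa with library weights (-0.24), and for Actc1 without FMTg replicates 4 and 5 and with the block (-0.10 in both). In the set without FMTg replicates 2, 4 and 5, chosen after seeing the data, Ttn was 0.051, Mybpc3 0.11 and Nppa -0.41. Leaving out 1 library gave -0.40 to 0.20 for Myh6, -0.52 to 0.0031 for Myh7, -0.45 to 0.17 for Tnnt2, -0.41 to 0.43 for Tnni3, -0.052 to 0.29 for Actc1, -0.37 to 0.23 for Myl2 and -0.54 to 0.87 for Nppa. With 3 against 5 libraries of this spread, small changes of these genes were not detectable.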
